A study of Mus musculus with 10 samples.

Results

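Wnt ligands are secreted, lipid-modified glycoproteins that carry signals between cells of the embryo. The account below concerns 10 of the 19 mouse Wnt genes, Wnt1, Wnt2, Wnt3, Wnt3a, Wnt5a, Wnt6, Wnt7b, Wnt10a, Wnt10b and Wnt11, which are 10 of the 22380 protein-coding genes of the GENCODE vM1 annotation. They were chosen by name, and the sites counted for each gene are those that share at least 1 bp with its gene body plus 5 kb on each side in mm9. The other 9 Wnt genes are given beside them, because the choice of the 10 was made with earlier results of these data known.

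Wnt proteins leave the producing cell with the help of Porcn, which attaches their lipid, and Wls, which carries them to the surface, and they bind Frizzled receptors together with co-receptors such as Lrp5 and Lrp6. In the canonical branch this stabilises beta-catenin, which acts with Tcf and Lef proteins in the nucleus. Other branches work through the Ror and Ryk receptors and shape cell movement and polarity. In embryonic stem cells (ESCs), canonical Wnt signalling favours self-renewal, while most Wnt genes are themselves developmental genes that are little used in this state. Such genes are typical targets of Polycomb repressive complex 2 (PRC2), whose subunit Suz12 is needed for its activity and whose catalytic subunits trimethylate lysine 27 of histone H3 (H3K27me3), a mark of repressed genes. Pcl3 is a Polycomb-like protein that associates with PRC2.

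The study asked how Pcl3 affects PRC2 in mouse ESCs, using chromatin immunoprecipitation and sequencing (ChIP-seq). The Suz12 and H3K27me3 libraries came from the BayGenomics gene trap line XG122 with the genotype Suz12 Suz12TAP/+, in which 1 copy of Suz12 was rebuilt to carry a tandem affinity (TAP) tag that the FlagM2 antibody detects. These cells carried either scramble shRNA or Pcl3 shRNA, and each of the 4 combinations of antibody and shRNA has 1 ChIP library, with 1 input DNA library for each shRNA. The Pcl3 libraries came from another line, E14 ESCs, that expressed a tagged Pcl3 (Pcl3-TAP) together with an shRNA against wild type Pcl3, either shRNA 6 or shRNA 7, with 1 ChIP and 1 input library for each. All of the knockdown and control cells of the Suz12 and H3K27me3 comparison carried the tagged Suz12 allele, and no animal, age or drug treatment was involved.

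Of these 10 libraries the files hold 4 lists of sites. They are the Suz12 binding sites (8876), the Suz12 sites depleted in Pcl3 shRNA cells relative to scramble (5722), the Pcl3 binding sites (5242) and the sites where H3K27me3 was depleted in Pcl3 shRNA cells (678). Each site has a p-value of the Skellam distribution, which compares read counts of a pair of libraries, and wider sites tended to have smaller p-values. A p-value too small to be stored was written as 0, and such sites are placed above all others here. The depleted Suz12 list repeats the positions and p-values of the binding list, so depletion of a Suz12 site is a yes or a no, without a size. The lists hold no read counts, so the depth behind a site is unknown. With 1 library per condition no test between conditions can be run, and the values below are descriptions of these libraries. The lists hold no expression values, so the identity of the cells could not be checked by expressed markers. Of 6 stem cell genes only Esrrb had a Suz12 site, while Pou5f1, Nanog, Zfp42, Tdgf1 and Sox2 had none. Esrrb and Sox2 had a Pcl3 site. At Esrrb the strongest Suz12 site (p-value 6.61e-229) was depleted, and the smallest Pcl3 p-value was 7.90e-264.

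The sequences at the bound starts show what the 10 genes share and where they differ. The 150 bases just upstream of the first annotated start are printed for 5 genes, on the strand of the gene, with CpG dinucleotides in capitals. In these upstream bases Wnt3a, Wnt11 and Wnt1 stand for the CpG-rich genes, and Wnt5a and Wnt10a for the CpG-poor ones. The contrast is limited to the upstream side. In 500 bp centered on the first start, Wnt5a had 7.6 CpG per 100 bp, Wnt1 7.4 and Wnt10a 3.8. Each stretch lies inside a Suz12 site and a Pcl3 site, and none touches an annotated untranslated region.
Wnt3a, chr11:59104255-59104404, minus strand: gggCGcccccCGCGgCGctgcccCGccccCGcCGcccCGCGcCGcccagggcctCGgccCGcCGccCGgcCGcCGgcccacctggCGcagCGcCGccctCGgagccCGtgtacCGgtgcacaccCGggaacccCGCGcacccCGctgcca
Wnt11, chr7:105983472-105983621, plus strand: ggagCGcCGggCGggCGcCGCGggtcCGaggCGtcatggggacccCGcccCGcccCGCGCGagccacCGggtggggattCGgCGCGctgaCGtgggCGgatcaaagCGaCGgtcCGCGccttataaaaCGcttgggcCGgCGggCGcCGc
Wnt1, chr15:98620138-98620287, plus strand: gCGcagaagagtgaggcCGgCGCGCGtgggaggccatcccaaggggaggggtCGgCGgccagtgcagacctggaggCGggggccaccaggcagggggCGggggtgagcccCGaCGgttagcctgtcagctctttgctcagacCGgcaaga
Wnt5a, chr14:29317786-29317935, plus strand: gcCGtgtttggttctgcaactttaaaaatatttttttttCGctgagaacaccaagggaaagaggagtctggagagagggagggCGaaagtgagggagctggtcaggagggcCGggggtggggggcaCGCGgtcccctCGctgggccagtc
Wnt10a, chr1:74837940-74838089, plus strand: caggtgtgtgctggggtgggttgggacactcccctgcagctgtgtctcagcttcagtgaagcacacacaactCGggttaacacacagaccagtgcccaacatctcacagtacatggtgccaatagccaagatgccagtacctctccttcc
These stretches held 28 CpG at Wnt11, 26 at Wnt3a, 12 at Wnt1, 7 at Wnt5a and 1 at Wnt10a.

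Over 250 bases upstream of the first start, the 10 genes held from 3 CpG at Wnt10a to 41 at Wnt3a, with a median of 22.5. Over all 22380 genes the median was 8.0, and over the 4078 genes whose first start lies in a Suz12 site it was 16.0. In the other 9 Wnt genes it was higher, at 32.0, so a high count does not set the 10 genes apart within the family. The letters GCGCGC, which read the same on both strands and were counted with overlaps, occurred in this window at 4 of the 10 genes (40.0%), among them Wnt1, Wnt6 and Wnt11, beside 26.1% of the genes whose start lies in a Suz12 site and 13.2% of all genes. At Wnt11 the letters were found 2 times and at Wnt1 and Wnt6 once each. In the other Wnt genes they occurred in 4 of 9. A match is a run of letters and says nothing about a protein bound there.

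Suz12, depleted Suz12 and Pcl3 sites were found at each of the 10 Wnt genes. Over all protein-coding genes, 28.8% had a Suz12 site, 20.6% a depleted Suz12 site and 14.7% a Pcl3 site in the same kind of window, and 12.8% had all 3. The other 9 Wnt genes also had all 3 kinds of site, so their presence does not set the 10 genes apart within the family. H3K27me3-depleted sites were found at 5 of the 10, Wnt3, Wnt3a, Wnt5a, Wnt7b and Wnt11, where 3.13% of all genes had one.

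**Figure D1:**
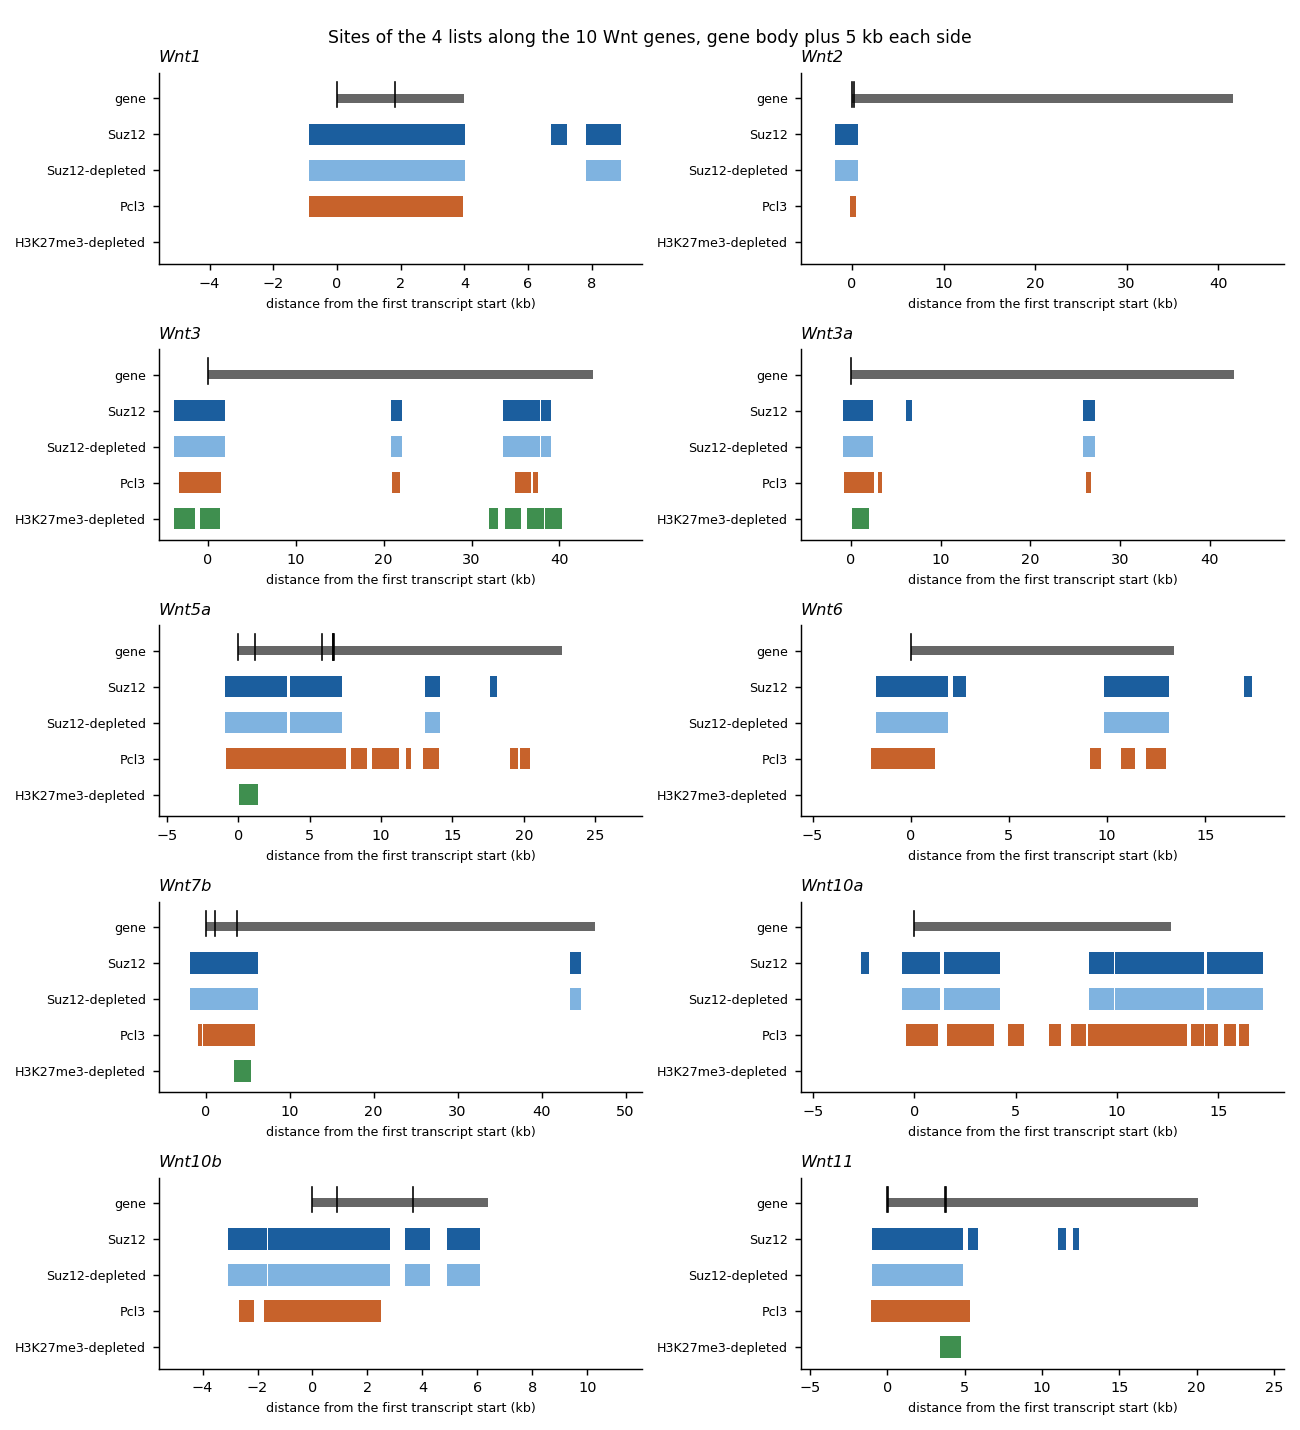
Maps of the sites of the 4 lists along the 10 Wnt genes. In each panel the horizontal axis is the distance from the first transcript start in kb, in the direction of transcription, the grey bar is the gene, black ticks are annotated transcript starts and coloured bars are sites to scale. Blue and light blue bars cover every tick, and green bars of H3K27me3 depletion appear in 5 panels.

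The windows of the 10 genes held 34 distinct Suz12 sites, 1 of which (chr1:74835451-74835850) lies between Wnt6 and Wnt10a and was counted for both. Their median −log10 p was 69.4, against 26.2 over all Suz12 sites. Their median width was 1375 bp, against 1100 bp. A p-value written as 0 was given to 7 of the 34, 1 each at Wnt1, Wnt3, Wnt3a, Wnt5a, Wnt7b, Wnt10b and Wnt11, while 4.9% of all Suz12 sites had such a value. Sites of 4 kb or more made up 8 of the 34 (23.5%), beside 3.83% of all sites. The outermost of the 34 lies 3833 bp from its gene, at Wnt1, and the nearest site left out lies 5533 bp away, also at Wnt1.

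All 24 distinct transcript starts of the 10 genes lay inside a Suz12 site, and all 24 of these lay inside a depleted one. Of the 24, 23 also lay inside a Pcl3 site. Of the 69976 distinct transcript starts of all protein-coding genes, 14.8% lay inside a Suz12 site, 11.2% inside a depleted one and 6.19% inside a Pcl3 site. The exception was the start of the transcript Wnt10b-202 within the gene, in a Suz12 site (chr15:98604301-98605200, p-value 8.60e-22) that shares no base with a Pcl3 site. In the other Wnt genes, 10 of 16 starts lay inside a Suz12 site. Those of Wnt8a and Wnt8b did not, nor did the later starts of Wnt5b and Wnt7a.

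Wnt1 and Wnt10b are neighbours on chromosome 15, transcribed away from each other and separated by 11706 bp. Wnt1, known for its part in forming the midbrain, was covered from end to end. Its main Suz12 site (chr15:98619401-98624300, 4900 bp, p-value written as 0) spans the gene, which runs from 98620288 to 98624268, and its center lies in an intron. Its Pcl3 site (chr15:98619401-98624250, 4850 bp, p-value also written as 0) has the same left edge and ends 50 bp before the Suz12 site, which is the step of the deposited positions. Downstream of Wnt1 lay 2 Suz12 sites without Pcl3, a depleted one of 1100 bp (p-value 1.81e-33) and one of 500 bp outside the depleted list (p-value 1.49e-09). No H3K27me3-depleted site was found at either gene.

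Wnt10b, a ligand with known roles in bone and fat, had 4 Suz12 sites that covered 48.5% of its window, and all 4 were depleted. The strongest (chr15:98605751-98610200, 4450 bp, p-value written as 0) holds the starts of 2 of its transcripts and was matched by a Pcl3 site of 4250 bp (p-value 1.58e-203). That Pcl3 site reached 150 bp past the right edge of the Suz12 site, into the next Suz12 site upstream (chr15:98610251-98611650, p-value 5.36e-54). The 2 Suz12 sites over the body of the gene, of 900 bp and 1200 bp, had no Pcl3 site.

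Wnt6 and Wnt10a lie in tandem on chromosome 1, 6196 bp apart. At Wnt6, which is expressed in embryonic surface ectoderm, the Suz12 site at the start (chr1:74816701-74820350, 3650 bp) had a p-value of 1.98e-307, and its Pcl3 site of 3250 bp had a p-value of 3.28e-170. A second strong Suz12 site (chr1:74828301-74831600, 3300 bp, p-value 7.66e-193) lay over the later part of the gene, and 2 narrower Pcl3 sites (p-values 4.29e-23 and 7.82e-14) shared bases with it. Both strong sites were depleted. A site of 700 bp just downstream of the first (p-value 2.98e-12) and the shared 400 bp site between the genes (p-value 5.27e-08) were not.

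Wnt10a, a ligand needed for teeth and other skin appendages, had the largest number of sites of the 10 genes and the largest share of its window covered. Its 6 Suz12 sites covered 59.1% of the window and its 10 Pcl3 sites 58.7%, while these shares had medians of 27% and 22.5% over the 10 genes. In contrast to the others its strongest Suz12 site (chr1:74848001-74852400, 4400 bp, p-value 3.13e-306) lay not at the start but over the end of the gene, with its center in the untranslated region. The strongest Pcl3 site (chr1:74846651-74851550, 4900 bp, p-value 1.73e-178) joined this Suz12 site with the preceding one (chr1:74846701-74847950, p-value 7.35e-90). At the start, whose CpG-poor upstream sequence is printed above, the Suz12 site of 1850 bp had a p-value of 1.82e-122 and the Pcl3 site of 1550 bp a p-value of 7.74e-46. All Suz12 sites of Wnt10a apart from the one shared with Wnt6 were depleted, and no H3K27me3-depleted site lay at Wnt6 or Wnt10a.

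Wnt3 and Wnt3a, on chromosome 11, are canonical ligands used at gastrulation and in the growing tail of the embryo. Wnt3 carried 4 Suz12 sites, all depleted. The widest (chr11:103631651-103637400, 5750 bp, p-value written as 0) spans the start, and the next (chr11:103669001-103673300, 4300 bp, p-value 3.63e-213) lies with its center in an intron 35687 bp into the gene. Each has Pcl3 sites within it, of 4800 bp (p-value 2.89e-118) at the start and of 1850 bp (p-value 6.09e-50) and 600 bp (p-value 6.41e-11) inside the gene. A further intronic pair of sites, Suz12 of 1200 bp (p-value 1.25e-51) and Pcl3 of 900 bp (p-value 3.00e-17), lies 21437 bp from the start. Wnt3 thus had 2 wide, depleted Suz12 stretches, of which only 1 holds an annotated start.

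Wnt3a had its strongest Suz12 site at the start (chr11:59101801-59105150, 3350 bp, p-value written as 0), with a Pcl3 site of 3300 bp (p-value 2.04e-149). A second depleted site (chr11:59077051-59078400, p-value 1.41e-57) lies in an intron 26528 bp downstream of the start, with a Pcl3 site of 600 bp (p-value 1.42e-10). Another Suz12 site, of 600 bp (p-value 2.39e-09) in an intron, was outside the depleted list and had no Pcl3 site. The start sites of Wnt3 and Wnt3a were both depleted and both held Pcl3, but the Pcl3 site covered 83.5% of the Suz12 site at Wnt3 and 95.5% at Wnt3a.

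Wnt5a and Wnt11 are the ligands among the 10 best known for the non-canonical branches, in the outgrowth of the body axis and limbs and in the branching of the kidney. At Wnt5a the 6 annotated starts fell into 2 Suz12 sites, an upstream one (chr14:29317001-29321350, 4350 bp, p-value written as 0) and a downstream one (chr14:29321551-29325200, 3650 bp, p-value 9.47e-301). A single Pcl3 site of 8450 bp (chr14:29317051-29325500, p-value written as 0) ran across both and held all 6 starts, the widest Pcl3 site of the 10 genes. Further into the gene, Pcl3 sites without Suz12 followed, of 1150 bp (p-value 1.70e-29) and 1900 bp (p-value 1.27e-45), 600 bp and 1800 bp from the nearest Suz12 site. Pcl3 sites therefore covered more of the Wnt5a window (43.3%) than Suz12 sites did (29.1%). A Suz12 site of 450 bp in a coding exon (p-value 1.74e-08) was the only one of its 4 outside the depleted list.

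At Wnt11 a Suz12 site of 5850 bp (chr7:105982651-105988500, p-value written as 0) held all 4 distinct starts, which lie in 2 groups. The Pcl3 site (chr7:105982551-105988950, 6400 bp, p-value written as 0) enclosed it and reached into the next Suz12 site by 100 bp. That next site (chr7:105988851-105989500, p-value 5.19e-11) was not in the depleted list, and neither were 2 narrow sites in the coding exons (p-values 1.24e-09 and 6.62e-08). Wnt11 had 3 sites outside the depleted list, more than any other of the 10 genes.

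Wnt7b and Wnt2 lie at opposite ends of the group. Wnt7b, used in the lung and kidney, had the widest Suz12 site of the 10 genes (chr15:85406051-85414050, 8000 bp, p-value written as 0). It holds all 3 distinct starts, and only 0.552% of all Suz12 sites were wider. A Pcl3 site of 6250 bp (p-value 2.57e-242) and one of 400 bp (p-value 6.92e-08) lay within it. A depleted Suz12 site of 1350 bp (p-value 6.05e-31) over a coding exon near the end of Wnt7b had no Pcl3 site. Wnt2, a ligand of the developing lung and placenta, had 1 Suz12 site (chr6:17979901-17982400, 2500 bp, p-value 2.86e-101), which was depleted. Its Pcl3 site was the weakest of the strongest sites of the 10 genes, 700 bp with a p-value of 4.33e-13, and covered 28.0% of the Suz12 site. Of all Pcl3 sites, 59.7% had a smaller p-value.

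**Figure D2:**
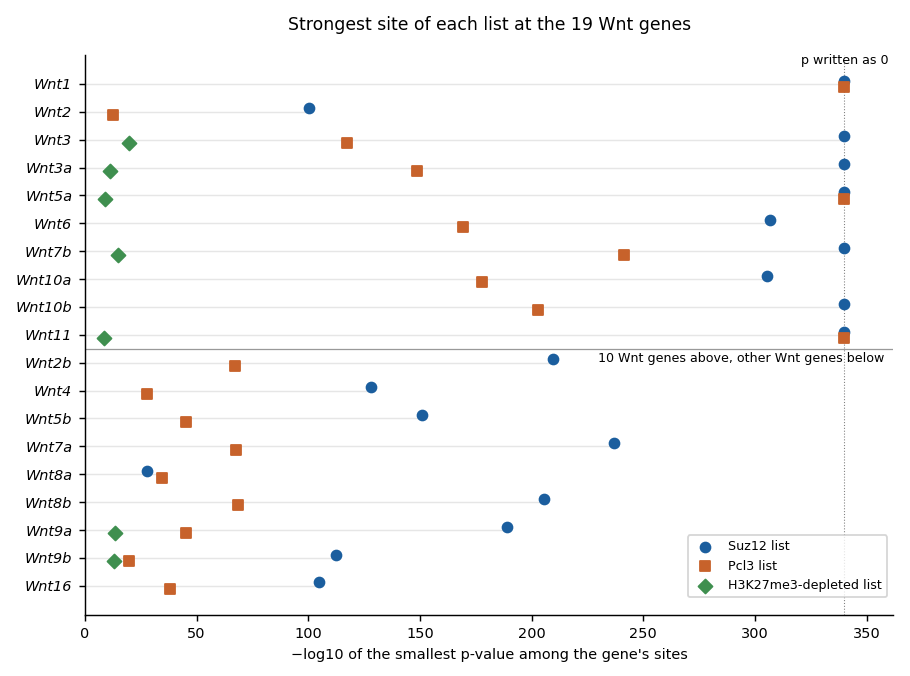
Smallest p-value among the sites of each list at the 19 Wnt genes, on the −log10 scale, with p-values written as 0 drawn on the dotted line. Circles are Suz12, squares Pcl3 and diamonds H3K27me3-depleted sites, and each point is a single site of 1 list, so no error can be drawn. The 7 genes with a Suz12 site on the dotted line all belong to the 10. The Suz12 point of Wnt2 lies within the range of the other Wnt genes, and its Pcl3 point lies below all of theirs.

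By the strongest Suz12 site, Wnt1, Wnt3, Wnt3a, Wnt5a, Wnt7b, Wnt10b and Wnt11 could not be ordered, since their p-values were all written as 0. They were followed by Wnt6 (−log10 p of 307), Wnt10a (306) and Wnt2 (101). By the strongest Pcl3 site, Wnt1, Wnt5a and Wnt11 stood above Wnt7b (242), Wnt10b (203), Wnt10a (178), Wnt6 (169), Wnt3a (149), Wnt3 (118) and Wnt2 (12.4). Each list gives a single p-value per site and none per library, also the Pcl3 list with its 2 ChIP libraries, so the spread of these values is unknown and neighbours in the order cannot be told apart. In the other Wnt genes the strongest Suz12 site ranged from 27.7 at Wnt8a to 237 at Wnt7a, and the strongest Pcl3 site from 19.7 at Wnt9b to 68.3 at Wnt8b. The 10 genes were named with such values known, so this difference is not independent evidence about them. At Wnt8a the strongest Pcl3 site (34.5) had a smaller p-value than the strongest Suz12 site. At 15 of the 19 Wnt genes it had a larger one, and at Wnt1, Wnt5a and Wnt11 both were written as 0.

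Of the 34 Suz12 sites, 26 (76.5%) were in the depleted list, where 64.5% of all Suz12 sites and 55.0% of those of the other Wnt genes were. The 8 sites outside it were the weakest of the 34. Their −log10 p ran from 7.18 to 11.5 and their widths from 400 to 700 bp, and none held a transcript start. The 26 depleted sites began at a −log10 p of 21.1 and a width of 900 bp, so the 2 kinds did not overlap in either measure. In the other Wnt genes they overlapped in both. Depleted sites there began at 9.96 and 600 bp, and sites outside the list reached 21.6 and 1050 bp. The split by width was not computed over all Suz12 sites. Depletion followed the p-value across all Suz12 sites too. At a −log10 p under 12, 0 of the 8 sites of these genes and 9.4% of all such sites were depleted. From 12 to under 50 it was 6 of 6 and 68.4%, from 50 to under 100 it was 5 of 5 and 99.2%, and from 100 upward 15 of 15 and 100.0%. At equal strength the Wnt sites are thus close to the background, and these bounds were chosen after the values were seen.

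**Figure D3:**
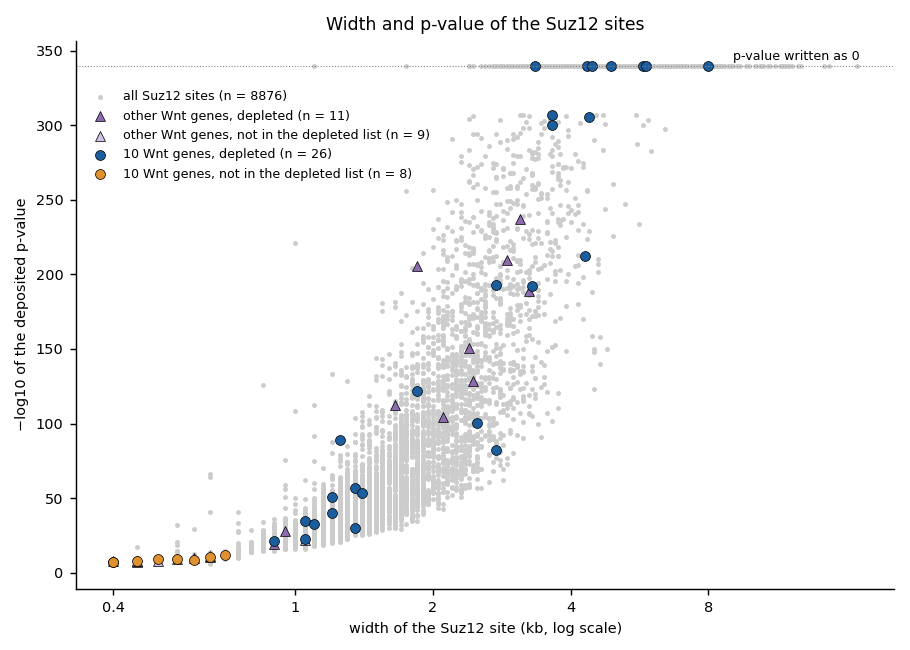
Width (kb, log scale) and −log10 p of all 8876 Suz12 sites in grey, with the sites of the 10 Wnt genes as circles and those of the other Wnt genes as triangles. Blue circles are depleted and orange circles are not in the depleted list. The 8 orange circles lie at the lower left, at widths up to 700 bp, and p-values written as 0 are drawn on the dotted line.

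The sequence at the center of a site outside the depleted list can be set beside that of a depleted site away from the start. The 150 bases around the center are printed for the wide intronic site of Wnt3, which is depleted, and for 2 sites that are not, in an intron of Wnt11 and between Wnt6 and Wnt10a. CpG are again in capitals, and the strand is that of the gene.
Wnt3, depleted, chr11:103671076-103671225, plus strand: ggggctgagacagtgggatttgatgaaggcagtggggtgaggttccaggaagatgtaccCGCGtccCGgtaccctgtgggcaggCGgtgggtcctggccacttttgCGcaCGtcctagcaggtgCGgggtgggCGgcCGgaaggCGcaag
Wnt11, not in the depleted list, chr7:105989101-105989250, plus strand: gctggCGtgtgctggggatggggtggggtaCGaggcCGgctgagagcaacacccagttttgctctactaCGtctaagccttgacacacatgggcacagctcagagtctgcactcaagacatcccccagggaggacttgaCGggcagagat
Wnt6 and Wnt10a, not in the depleted list, chr1:74835576-74835725, plus strand: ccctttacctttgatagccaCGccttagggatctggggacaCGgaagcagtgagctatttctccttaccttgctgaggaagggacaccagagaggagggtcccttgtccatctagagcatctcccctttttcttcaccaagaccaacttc
They held 10, 5 and 2 CpG. These sites are extremes and do not stand for their kinds. In the central 500 bp they had 10.0, 1.2 and 1.2 CpG per 100 bp. The medians there were 5.0 for the depleted sites of the 10 genes and 2.8 for the others. The 2 kinds overlapped, with 0.8 at a depleted intronic site of Wnt6 and up to 5.0 at a Wnt11 site outside the depleted list.

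Over whole sites, the 34 Suz12 sites of the 10 genes were poor in CpG for Suz12 sites. Their median was 4.04 CpG per 100 bp, against 5.41 over all 8876, and 33 of the 34 lay below the median of all sites. The exception was the site at the Wnt3a start, with 5.76. The lowest densities belonged to sites outside the depleted list, 1.23 at the intronic Wnt11 site printed above and 1.25 at the site between Wnt6 and Wnt10a. The depleted sites had a median of 4.11 and the 8 others a median of 2.70, where the corresponding medians over all Suz12 sites were 5.45 and 5.27. CpG density also varies with the width of a site and with the presence of a start.

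Within classes of width, 29 of the 34 sites were below the median of all Suz12 sites of their class. Under 1 kb the 9 sites of these genes had a median of 2.40 against the 5.11 of the class, with 8 of 9 below it. From 1 kb to under 2 kb the median of their 10 sites was 3.65 against 5.63, and all 10 lay below it. At 4 kb or more the medians were 4.73 and 4.90, with 5 of 8 below. Of the 12 sites that hold a transcript start, all 12 lay below the 6.17 of Suz12 sites with a start, at a median of 4.37. In the other Wnt genes this was so for 4 of 7, at a median of 5.74. Of the 22 sites without a start, 16 lay below the 4.42 of such Suz12 sites, at a median of 3.45. In the other Wnt genes it was 8 of 13, at a median of 3.54. Low density away from starts thus does not set the 10 genes apart within the family. The CpG-rich letters upstream of the starts of Wnt3a and Wnt11 stand in wide sites whose density over the whole site is lower than in the printed stretches, at 5.76 and 4.84 CpG per 100 bp. In the 500 bp around the center, 7 of the 34 sites (20.6%) held GCGCGC, where 37.5% of all Suz12 sites did.

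**Figure D4:**
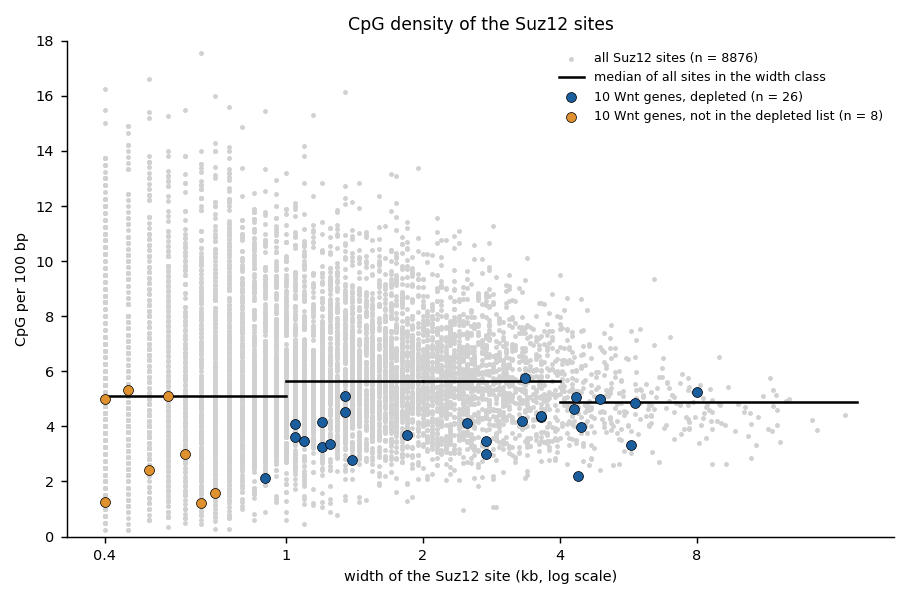
CpG per 100 bp of each Suz12 site against its width (kb, log scale), with all sites in grey and the 34 sites of the 10 Wnt genes in blue (depleted) or orange (not in the depleted list). Black lines are the medians of all sites under 1 kb, from 1 to 2 kb, from 2 to 4 kb and from 4 kb. Most coloured points lie under the line of their class, and those of 4 kb or more lie near it.

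Pcl3 sites shared bases with 22 of the 34 Suz12 sites (64.7%), where 44.3% of all Suz12 sites and 60.0% of those of the other Wnt genes did. As with depletion, the share rose with strength. It was 1 of 8 at a −log10 p under 12 (11.4% of all such sites), 1 of 6 from 12 to under 50 (28.9%), 5 of 5 from 50 to under 100 (73.0%) and 15 of 15 from 100 upward (97.7%). Of the 26 depleted sites, 21 had a Pcl3 site, beside 9 of 11 in the other Wnt genes. The share over all depleted Suz12 sites was not computed. Among the 26, 15 had a −log10 p of 100 or more, where 97.7% of all Suz12 sites had a Pcl3 site. The count of 21 therefore cannot be read as particular to these genes. The 5 depleted sites without a Pcl3 site lay at Wnt1 downstream, at the end of Wnt3, in the body of Wnt7b and in the body of Wnt10b, where there were 2. None of the 5 lay at the first start of a gene.

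The 35 Pcl3 sites of the 10 genes were less strong than the Suz12 sites, with a median −log10 p of 14.2 and a median width of 800 bp, near the 16.3 and 850 bp over all Pcl3 sites. Alongside many narrow sites there were 7 of 4 kb or more. Of the 35, 25 shared a base with a Suz12 site and 10 did not, while 76.9% of all Pcl3 sites shared one. The 10 were found at Wnt5a (5), Wnt10a (3), Wnt3a and Wnt6. They lay 150 to 1800 bp from the nearest Suz12 site. Each window holds Suz12 sites, so short gaps were largely given by the choice of windows, and no conclusion is drawn from them. The Pcl3 and Suz12 lists come from different ESC lines as well as different proteins, and their part in these differences was not tested.

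H3K27me3-depleted sites numbered 10 at the 10 genes, and 9 of them shared a base with a Suz12 site. In the other Wnt genes it was 3 of 3, and the share over the whole list was not computed. In the whole family 7 genes had an H3K27me3-depleted site, Wnt9a and Wnt9b besides the 5 already named. Of the 34 Suz12 sites 7 (20.6%) shared a base with one, beside 6.89% of all Suz12 sites. In the other Wnt genes it was 4 of 20 (20.0%), so the share does not set the 10 genes apart within the family. Among Suz12 sites with a −log10 p of 100 or more it was 6 of 15, where 17.5% of all such sites shared a base with one. All 7 sites were in the depleted Suz12 list. So were 100.0% of all Suz12 sites of that strength, which 6 of the 7 had. The other, at Wnt3, had a −log10 p of 22.8. From 12 to under 50, 68.4% of all Suz12 sites were depleted.

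Wnt3 held 6 of the 10 H3K27me3-depleted sites, which covered 21.1% of its window. The strongest (chr11:103631601-103634000, 2400 bp, p-value 1.46e-20) has its center upstream of the start and is number 15 of the 678 in the list by p-value. The next (chr11:103634601-103636850, p-value 3.82e-16) spans the start. The other 4 lie over or beside the second wide Suz12 stretch inside the gene, with p-values from 3.57e-14 to 6.04e-08, and the weakest of them shares no base with a Suz12 site. Loss of H3K27me3 was thus listed at both wide Suz12 stretches of Wnt3, and not at the intronic pair of Suz12 and Pcl3 sites between them.

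At the other genes there was 1 H3K27me3-depleted site each. That of Wnt7b (chr15:85406801-85408850, 2050 bp, p-value 1.85e-15) has its center 4425 bp downstream of the first start and holds the innermost start, of the transcript Wnt7b-202. That of Wnt11 (chr7:105987051-105988400, 1350 bp, p-value 3.92e-09) likewise has its center 4104 bp downstream of the first start and holds the 2 starts of the inner group. That of Wnt5a (chr14:29318001-29319300, 1300 bp, p-value 7.18e-10) holds the start of Wnt5a-004, and that of Wnt3a (chr11:59102251-59104150, 1900 bp, p-value 5.76e-12) lies in the first part of the gene and holds no start. Of the 24 transcript starts, 5 lay in an H3K27me3-depleted site, and only at Wnt3 was this the first start of the gene. In the other Wnt genes 3 of 16 starts lay in one, and the share over the starts of all genes was not computed. The sites at Wnt5a and Wnt11 were in the weaker part of the list, with 39.4% and 51.0% of its sites having a smaller p-value.

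Chromosome 11 moves with this result. It holds 29.2% of all H3K27me3-depleted sites but 10.4% of the Suz12 sites. All 4 Wnt genes of chromosome 11, Wnt3, Wnt3a, Wnt9a and Wnt9b, had an H3K27me3-depleted site, and 3 of the 15 Wnt genes elsewhere did. Among all genes with a depleted Suz12 site and a Pcl3 site, an H3K27me3-depleted site was found at 50.6% of those on chromosome 11 and at 14.1% of those on other chromosomes, 17.4% together. Outside chromosome 11 the count for the 10 genes was 3 of 8. Whether the Wnt genes or their chromosome carry the difference cannot be told apart with 4 genes.

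The rest of the pathway was looked up in the same lists, by groups of genes chosen by function. Sites were frequent at the secreted and surface parts of the pathway and at its feedback inhibitors. They were at the level of all genes in the shared cytoplasmic machinery. Of 16 receptors and co-receptors, 13 had a Suz12 site, 12 a depleted one and 10 a Pcl3 site, and of 14 secreted inhibitors these counts were 12, 10 and 10. Of 9 R-spondins and their receptors 7 had a Suz12 site, 6 a depleted one and 4 a Pcl3 site. All 6 cytoplasmic feedback inhibitors had a depleted Suz12 site and 5 a Pcl3 site. Of 9 cytoplasmic components only Axin1 and Dvl1 had a Suz12 site. Of 7 nuclear effectors, 5 had a Suz12 site, 4 a depleted one and 3 a Pcl3 site. Of the secretion genes, Wls had a site of these 3 lists and Porcn had none. H3K27me3-depleted sites were found at 4 receptors, 2 secreted inhibitors, 1 gene of the R-spondin group and 1 feedback inhibitor, Axin2.

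**Figure D5:**
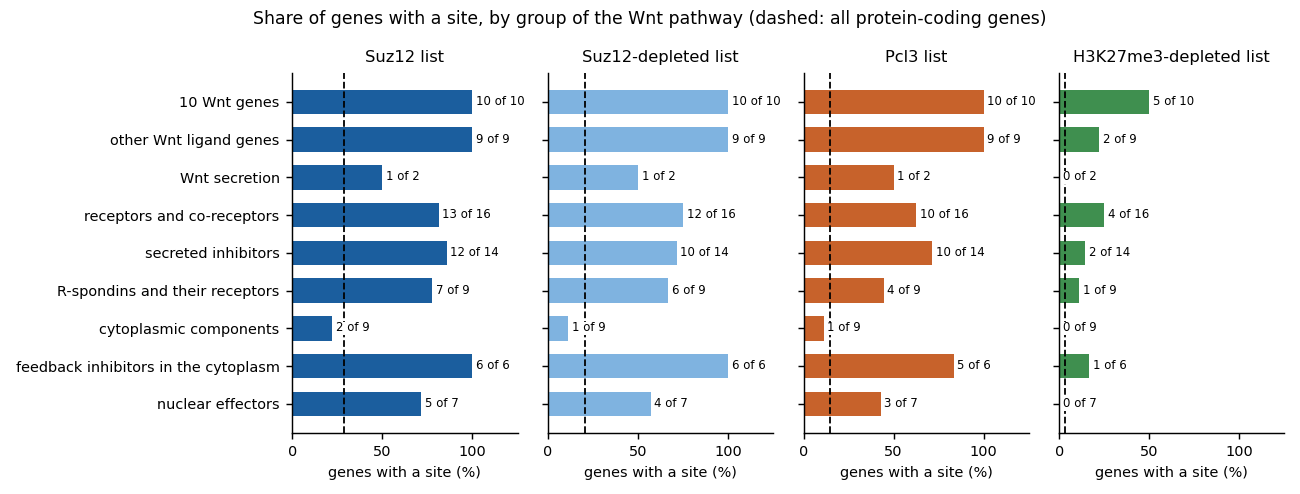
Percentage of genes with a site of each of the 4 lists, for the 10 Wnt genes and 8 other groups of the pathway, with counts beside the bars. Dashed lines mark the share of all protein-coding genes (28.8%, 20.6%, 14.7% and 3.13%). The bars of the 19 Wnt genes reach 100% in the first 3 panels, and the cytoplasmic components lie at or below the dashed lines.

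In each group the strongest Suz12 sites were as follows. Among the receptors the Frizzled genes Fzd8 (3550 bp, p-value written as 0), Fzd1 (p-value 2.90e-303) and Fzd2 (p-value 2.09e-224) led. Fzd2 also had an H3K27me3-depleted site (p-value 3.01e-16), and like Wnt3 it lies on chromosome 11. So does Axin2, the feedback inhibitor with such a site. Among the secreted inhibitors, which bind Wnt proteins or their receptors outside the cell, these were Frzb (p-value 4.73e-226), Sfrp1 (1.55e-182) and Sfrp5 (8.23e-166). These best sites of the receptors and inhibitors lay within the range of the 10 Wnt genes, and each was depleted and had a Pcl3 site at its gene.

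Lgr5, a receptor for R-spondins, led its group (p-value 1.19e-154), before the R-spondins Rspo2 (1.99e-130) and Rspo1 (6.38e-129), which strengthen Wnt signals. Of the nuclear effectors, Lef1 was first (3000 bp, p-value 4.58e-221), followed by Pygo1 (7.00e-103) and Tcf7l2 (9.67e-24). The feedback inhibitors Nkd1 (9.82e-109), Axin2 (5.07e-79) and Dact1 (2.22e-75) had weaker sites than 9 of the 10 Wnt genes had at their strongest. The value of Wnt2 (2.86e-101) lies between those of Nkd1 and Axin2. Axin1 (1.89e-29), Wls (2.88e-40) and Dvl1 (2.13e-09) were weaker still, and that of Dvl1 was the only one of those named here outside the depleted list.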

How the data were processed

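The 4 site lists were analysed as deposited. The authors aligned 30-nucleotide single-end reads to mm9 with Bowtie (version not given in the sources used here), kept uniquely aligned reads and scaled each pair of libraries to the same background. Windows of 400 bp whose Skellam p-value reached 1e-07 were joined into sites, and the p-value was computed anew for each site. They deposited 1 p-value per site. The sources used here do not say whether the 2 Pcl3-TAP libraries were pooled for their list. The input of the Pcl3 shRNA cells is named Pcl3 shRNA in its title and shRNA 6 in another label.

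Positions are 1-based in mm9, and all sites lie within the chromosome lengths of the genome used. Genes, starts and exons came from GENCODE vM1 and sequence from NCBIM37. Overlaps (at least 1 bp), tested on simulated intervals, counts and CpG were computed in Python 3.11.15 with pandas 2.3.3, numpy 2.4.6 and scipy 1.17.1, and plotted with matplotlib 3.10.9. −log10 p of 0 was ranked above all values. No test across conditions was made. The sequence at one start is not reported here.

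The 10 genes, the pathway groups and the alternatives were chosen with earlier results of these data known. Named genes are the 10, the other Wnt genes and, in each other group, the 3 with the smallest Suz12 p-value (ties by width). Alternatives were other windows, p-value cutoffs, definitions of a shared or depleted site, and CpG in the central 500 bp.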

Additional observations from a re-analysis of the deposited data

How the results depend on the processing

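The counts of Wnt genes with a Suz12, a depleted Suz12 and a Pcl3 site stayed at 10 of 10 under each of the 6 other windows and cutoffs tried. The count with an H3K27me3-depleted site stayed at 5 under the other windows. It was 3 with p-values of at most 1e-10 and 2 with at most 1e-12, where Wnt5a and Wnt11, and then Wnt3a as well, drop out by the cutoff itself. Outside chromosome 11, an alternative chosen after seeing the data, it was 3 of 8. Within 2 kb of a transcript start there were 16 Suz12 sites in place of 34, with a median −log10 p of 303, 93.8% depleted and 87.5% with Pcl3. This window leaves out strong and weak sites farther from a start, among them the strongest site of Wnt10a. With p-values of at most 1e-10 and 1e-12, 92.9% and 100.0% of the sites were depleted. In all, 46 of 55 alternative values kept the count within 1.5 times or stayed inside the 95% interval of the value reported. These intervals (Wilson for shares, order statistics for medians) treat the 34 sites as independent, though many are neighbours at the same gene. Most alternatives also reuse the same sites, so the tally is only a description. Every value for the CpG density stayed inside its interval. The central 500 bp is another measure, however, with a median of 4.4 against 7.0 over all Suz12 sites. Over whole sites these medians were 4.04 and 5.41. No paired analysis was possible because the result comes from no test and the lists give no value per library. Depth is not in the lists, so weak sites that were missed, or a partial loss at the 8 sites outside the depleted list, cannot be seen.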
